A study of Mus musculus with 10 samples.

Results

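The genes described here encode the machinery that folds proteins in the endoplasmic reticulum (ER) and the pathway that adjusts that machinery, the unfolded protein response. They were 36 genes taken from a list of ER chaperones, lectin chaperones, disulfide isomerases, stress sensors, transcription factors, degradation factors and translocation factors. A gene was measured by the probe set that carried its symbol alone, and by the brightest of them on average where there were several. That rule found 34 of the 36, out of 18820 genes with such a probe set. Pdia4, a disulfide isomerase, and Ddit3, which encodes the transcription factor CHOP, lay only on probe sets that also name a second gene and were not used.

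Proteins bound for secretion enter the ER through the Sec61 channel, are folded there by chaperones such as BiP, and are pulled back out and destroyed when they fail to fold. When unfolded protein accumulates, the sensors IRE1, PERK and ATF6 switch on the transcription factors XBP1, ATF4 and cleaved ATF6, which raise the levels of chaperones and degradation factors. In the colon the goblet cell, which folds and secretes the very large mucin MUC2, carries a heavy ER load, and it has a sensor of its own, IRE1β, encoded by Ern2.

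Expression was measured on 10 Affymetrix whole-transcript arrays of mouse colonic organoids, cultures of colon epithelium started from isolated crypts and kept in Matrigel with Wnt, Noggin, R-spondin and EGF. All donors were male mice on a C57BL/6J background. Knockout donors were homozygous for a Pparg allele with exons 1 and 2 floxed and carried a Villin-Cre transgene, whose promoter is active in the intestinal epithelium. Their wild-type littermates were the controls. Pparg encodes PPARγ, a lipid-sensing nuclear receptor, whose agonist rosiglitazone was the treatment. Organoids received 1 µM rosiglitazone or its vehicle, 0.1% DMSO, for 24 h.

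The groups were wild-type vehicle (n = 2, mice 42 and 47), wild-type rosiglitazone (n = 3, mice 48, 42 and 47), knockout vehicle (n = 2, mice 46 and 44) and knockout rosiglitazone (n = 3, mice 46, 45 and 44). Values are given below in that order of groups and mice. In all there were 6 mice, 4 of which gave an array of each treatment, so arrays of different groups are not all independent. Array levels are on the log2 scale, where a difference of 1 is a doubling, and they are comparable between arrays for 1 probe set but not between genes. Precision is limited by how few arrays each group holds.

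The Pparg probe set read 8.35 and 8.41 in wild-type vehicle, 8.30, 7.59 and 7.93 in wild-type rosiglitazone, 8.58 and 8.47 in knockout vehicle, and 8.78, 7.37 and 8.41 in knockout rosiglitazone. Where its probes lie relative to the deleted exons was not known here, so it does not check the deletion and the genotype rests on the labels. The 2 arrays of mouse 46 stood apart from the rest, at -31.75 and -39.3 on a first principal component that held 27.4% of the variance, while the other 8 lay between -4.10 and 19.6. Of 8 epithelial markers 7 had a mean level above 5 (12.44 for Krt8 and 10.63 for Epcam), and Cdx1 was the dimmest at 4.55. Defining markers of plasma cells (Jchain 2.02, Mzb1 2.24), leukocytes (Ptprc 2.62, Cd3e 2.44) and stroma (Dcn 1.90, Pecam1 2.27) were near the bottom of the scale. Sdc1 at 10.04, Cd68 at 7.86 and Cd14 at 6.33 were the brightest of those lists.

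The promoters of many of these genes hold the ER stress response element, ERSE, whose ends are recognised by NF-Y (CCAAT) and by ATF6 or XBP1 (CCACG). The following stretches are from RefSeq promoters of build GRCm38.p6, written 5′ to 3′ on the strand of the gene, with the ends of each motif in capitals. All but Herpud1 are shown as examples of ERSE in chaperone and degradation genes. Herpud1 had no ERSE match and is shown for its ERSE-II and amino acid response element matches, described below. The latter is in capitals throughout.
Hspa5: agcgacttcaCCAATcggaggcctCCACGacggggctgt
Pdia6: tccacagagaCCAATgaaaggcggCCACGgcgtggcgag
Canx: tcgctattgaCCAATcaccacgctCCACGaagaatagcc
Syvn1: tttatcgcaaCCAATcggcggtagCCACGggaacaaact
Calr: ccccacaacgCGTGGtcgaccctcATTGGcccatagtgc
Derl3: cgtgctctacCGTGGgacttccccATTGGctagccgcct
Herpud1: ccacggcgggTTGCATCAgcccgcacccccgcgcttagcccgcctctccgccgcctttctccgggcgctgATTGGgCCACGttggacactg

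These stretches lie at chr2:34772015-34772053 on the plus strand for Hspa5, chr12:17266481-17266519 (plus) for Pdia6, chr11:50325790-50325828 (minus) for Canx and chr19:6046522-6046560 (plus) for Syvn1. Calr is at chr8:84847065-84847103 (minus), Derl3 at chr10:75893232-75893270 (plus) and Herpud1 at chr8:94386307-94386397 (plus). All lie upstream of the start of their gene, with the Hspa5 match at positions -65 to -47 and the Calr match at -162 to -144. In Calr and Derl3 the motif runs in the opposite orientation, so its ends read CGTGG and ATTGG.

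The ERSE motif (CCAAT, then any 9 bases, then CCACG), searched on both strands in the 250 bases before the start, was present in 9 of the 29 members with a promoter entry (31%) against 0.13% of the 27025 genes in the RefSeq table. The other members with a match were Creld2, Dnajc3 and Hsp90b1, the last with 2 matches. The related element ERSE-II (ATTGG, any 1 base, then CCACG) was found in Herpud1 alone among the members and in 0.037% of all genes. The Herpud1 stretch also held TGATGCAA on the opposite strand, the core of the amino acid response element bound by ATF4, which 0.918% of genes hold. The core TGACGTGG, present in 0.603% of genes, was found in none of the 29 promoters. A match is a description of these letters and was not tested as a binding site.

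Across the 5 comparisons no member passed the test, in either direction. The test was limma's moderated test on the 4 group means, with p-values adjusted by the Benjamini-Hochberg method over 23099 probe sets and a threshold of 0.05. The share of all probe sets called was 0.0% for rosiglitazone in wild type, 0.0% for rosiglitazone in knockout, 0.0% for the difference between these responses, 0.0% for genotype under vehicle and 0.0216% (5 probe sets) for genotype under rosiglitazone. At an unadjusted p under 0.05 the members called were again 0 in each comparison, against 0.991%, 3.06%, 2.32%, 5.69% and 4.81% of all probe sets in the same order. That is 229, 706, 536, 1314 and 1110 probe sets. The count of members called was also 0 without both arrays of mouse 46. It was 0 as well when the donor mouse entered as a random block, where 0.00433% of probe sets were called for rosiglitazone in knockout, 0.00433% for genotype under vehicle and 0.026% for genotype under rosiglitazone.

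The intervals show what size of change these arrays leave possible in the fit without the donor mouse. That fit does not use the pairing of arrays from 1 mouse, so intervals for the drug include the spread between mice. The 95% interval of the difference lay within 1 on the log2 scale for 32 of 34 members in each drug comparison, for 31 under vehicle and for 34 under rosiglitazone in the genotype comparisons, and for 27 in the difference between responses. It lay within a 1.5-fold change either way for 26, 26, 23, 27 and 18 members respectively. Ern2 and Trib3 had the widest intervals in the drug comparisons.

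**Figure D1:**
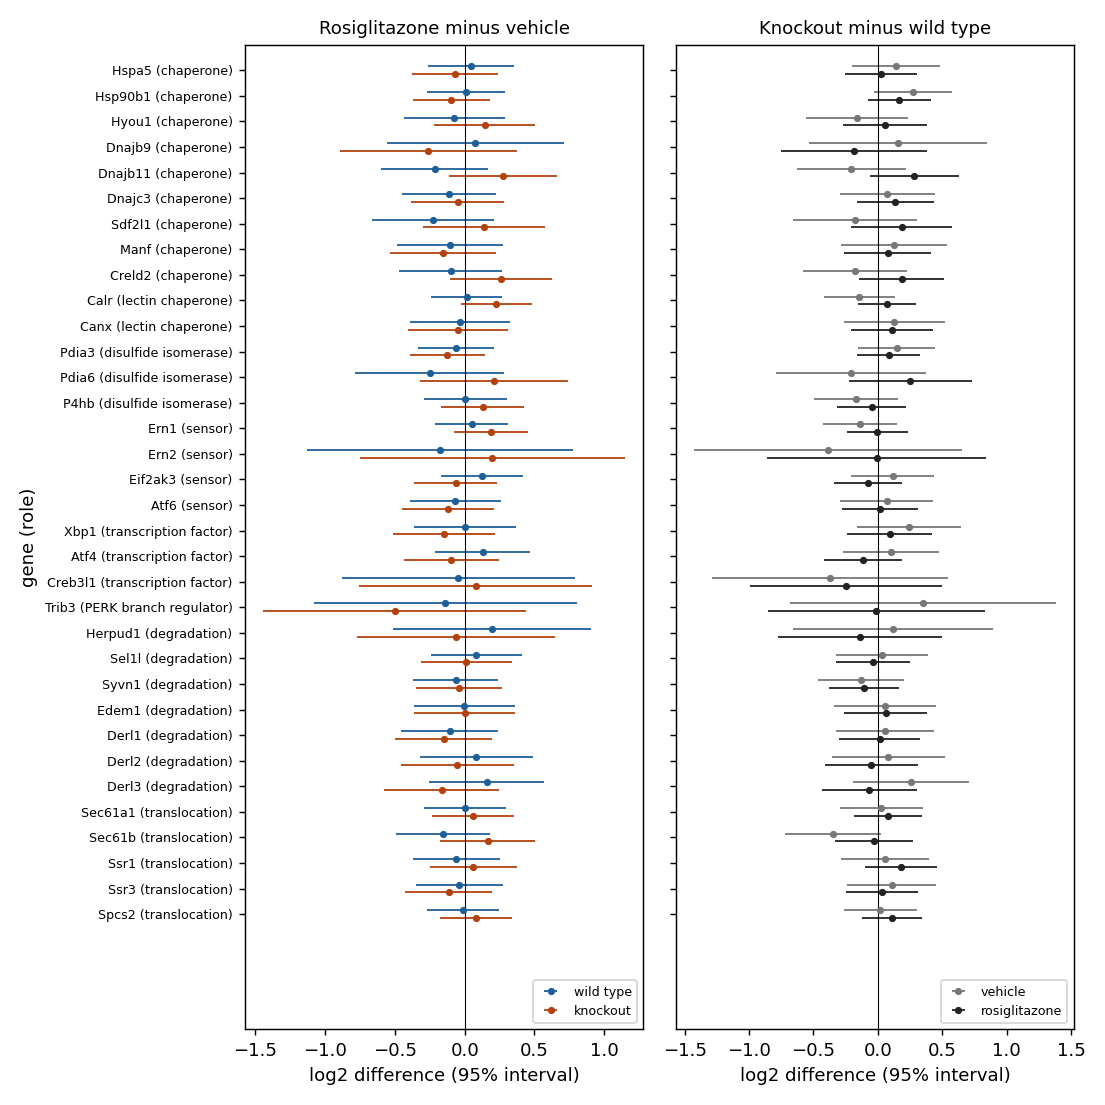
Log2 differences of the 34 measured ER genes (points) with 95% intervals (lines) for rosiglitazone minus vehicle in each genotype, left, and knockout minus wild type under each treatment, right. All intervals, taken from the fit without the donor mouse, cross 0, and those of Ern2, Creb3l1 and Trib3 are the widest.

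In wild-type organoids rosiglitazone left the members close to their vehicle level. Of the 34, 14 had a positive difference and the median was -0.03, against 54.3% positive and a median of 0.01 over all probe sets and 45.6% positive among those brighter than the median, where 32 of the members lie. The split turned within mice. With rosiglitazone 24 members were higher in mouse 42, against 53.2% of all probe sets and 56.9% of the brighter ones. In mouse 47, 21 members were higher, against 46.3% and 39.9%. The medians of the members were 0.06 and 0.05. With the donor mouse as a fixed block 21 of 34 differences were positive, with a median of 0.03. The share over all probe sets in that fit is not given here. With each array centred on its own median the split was 18 of 34, against 66.6% of all probe sets. The groups did not overlap for 4 members that were higher with the drug (Atf4, Derl2, Eif2ak3 and Ern1), where 8.65% of probe sets did so, and for 1 that was lower (Manf, 6.78%).

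In knockout organoids 15 members had a positive difference with rosiglitazone and the median was -0.05, against 46.4% and -0.01 over all probe sets and 52.0% positive among the brighter ones. With the donor as a fixed block 18 were positive and the median was 0.01. In mouse 44, 18 were higher with the drug, against 51.5% of all probe sets and 45.9% of the brighter ones. In mouse 46 it was 18, against 47.6% and 53.8%. Calr, Dnajb11, Ern1, P4hb and Spcs2 were higher without overlap (5 members, where 5.81% of probe sets did so) and Hsp90b1 was lower (1 member, 7.93%). The difference between the responses was positive for 17 of 34 members, with a median of -0.01, against 44.6% of all probe sets and 53.7% of the brighter ones.

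Between genotypes under vehicle, 22 of 34 members had a positive knockout-minus-wild-type difference and the median was 0.06, against 55.6% and 0.03 over all probe sets and 41.6% positive among the brighter ones. Centring the arrays shifted every difference of this comparison by 0.13 and left the split at 22 of 34, against 76.2% of all probe sets. There were 8 members higher in the knockout without overlap, where 23.0% of probe sets did so with 2 arrays a group, and 8 lower, where 16.1% did so. Under rosiglitazone 20 of 34 differences were positive, with a median of 0.03, and centring made it 29 of 34 against 71.1% of all probe sets (50.5% of all and 45.4% of the brighter ones uncentred). Only Hsp90b1 was higher in the knockout without overlap (4.22% of probe sets), and 0 members were lower (4.47%).

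BiP, encoded by Hspa5, is the central ER chaperone and holds the sensors inactive. Hspa5 read 10.15 and 10.26 in wild-type vehicle and 10.17, 10.22 and 10.36 in wild-type rosiglitazone. Knockout vehicle arrays gave 10.36 and 10.33, and knockout rosiglitazone arrays 10.47, 10.25 and 10.11. All 10 values lay within 0.36, the drug groups overlapped in both genotypes, and the drug difference was 0.04 ± 0.14 (SE) in wild type and -0.07 ± 0.14 in knockout.

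Hsp90b1 encodes the ER member of the Hsp90 family. It read 10.24 and 10.28 in wild-type vehicle and 10.12, 10.33 and 10.35 in wild-type rosiglitazone, against 10.49 and 10.58 in knockout vehicle and 10.48, 10.37 and 10.47 in knockout rosiglitazone. Every knockout array was above every wild-type array. The genotype difference was 0.27 ± 0.14 (SE) under vehicle (limma adjusted p = 0.855) and 0.17 ± 0.11 under rosiglitazone (adjusted p = 0.9993), so it did not pass the test. It was the 1 member of 34 higher in the knockout without overlap under both treatments, where 1.43% of probe sets were, and 0 members were lower in that way (1.58%).

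Dnajb11, a BiP co-chaperone, had the largest difference between the responses. Its values were 7.59 and 7.62 in wild-type vehicle, 7.12, 7.67 and 7.37 in wild-type rosiglitazone, 7.58 and 7.22 in knockout vehicle, and 7.75, 7.66 and 7.61 in knockout rosiglitazone. The lowest reading came from mouse 48, and the 3 knockout rosiglitazone arrays lay above both knockout vehicle arrays. The drug difference was -0.21 ± 0.17 (SE) in wild type and 0.27 ± 0.17 in knockout. The difference between them was 0.49 ± 0.25 (limma adjusted p = 0.9999).

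Sdf2l1 and Pdia6, a BiP-complex subunit and a disulfide isomerase, had a similar low reading in mouse 48. Sdf2l1 read 8.69 and 8.88 in wild-type vehicle and 8.27, 8.97 and 8.44 in wild-type rosiglitazone, and 8.68 and 8.53 in knockout vehicle and 8.91, 8.62 and 8.70 in knockout rosiglitazone. Pdia6 read 7.82 and 8.19, then 7.30, 7.89 and 8.08, in wild type, and 8.05 and 7.55, then 8.17, 8.00 and 7.86, in knockout. The groups overlapped in each drug comparison. For Pdia6 the wild-type drug difference was -0.25 ± 0.24 (SE), and without the array of mouse 48 it was -0.02. The same step took Sdf2l1 from -0.23 to -0.08 and Dnajb11 from -0.21 to -0.08.

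The array of mouse 48 was below the mean over arrays for 27 of the 34 members and the lowest of all arrays for 12. In the same count the arrays of mouse 46 were above the mean for 23 members in vehicle and 25 in rosiglitazone, and the array of mouse 45 was the lowest for 9. Pairs of arrays from 1 mouse differed by a median of 0.0875 to 0.133 over the members in the 4 mice with both treatments. Arrays of 2 mice in the same group differed by 0.0847 to 0.258. Thus the range between mice reached higher than the range between treatments of a mouse.

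**Figure D2:**
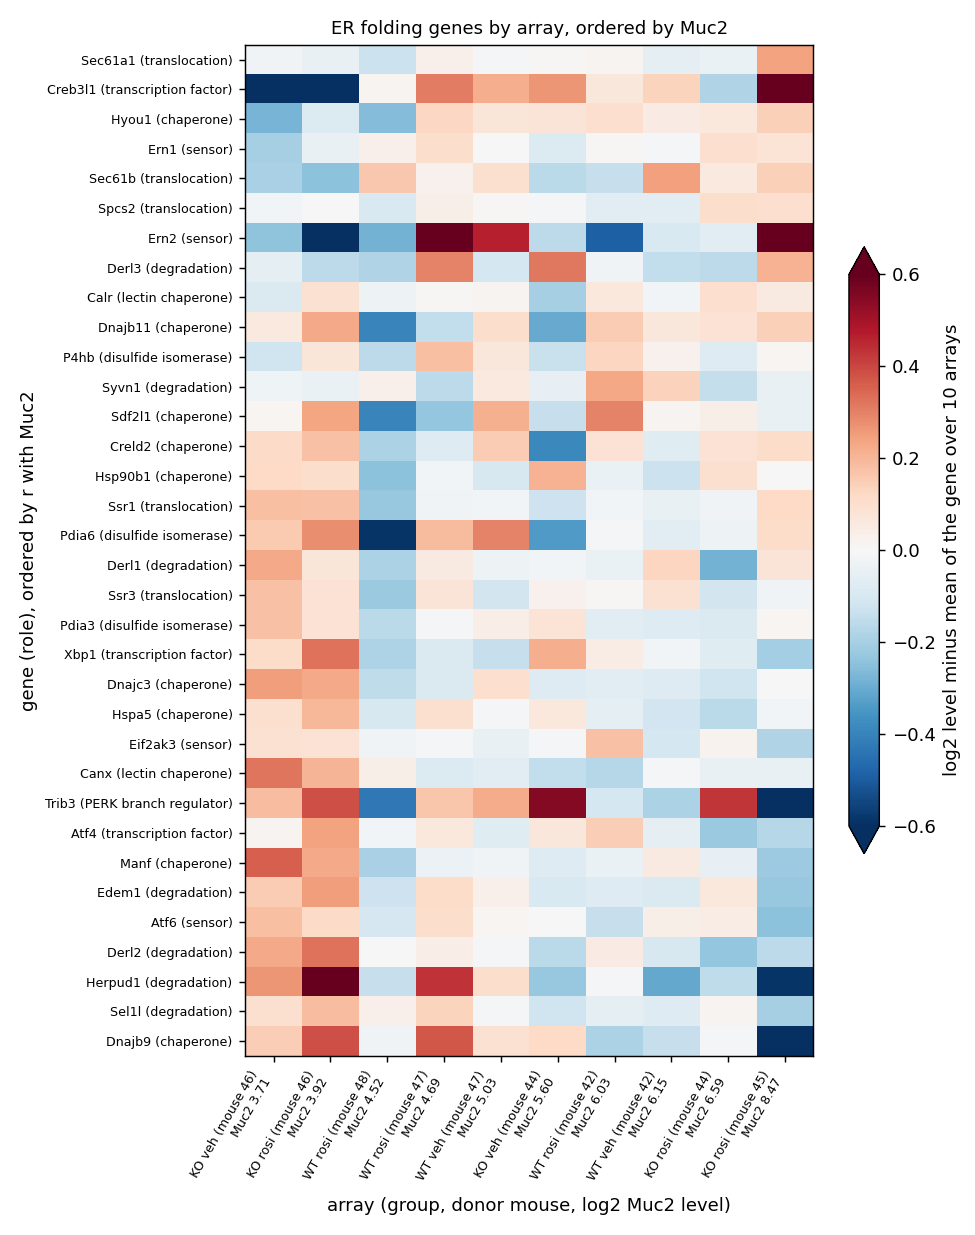
Each row is 1 ER gene and each column 1 array, ordered by its Muc2 level. Colour is the log2 level minus that gene's mean over 10 arrays, and colours saturate beyond 0.6. The arrays of mouse 46 at the left and of mouse 45 at the right differ in opposite directions for Herpud1, Dnajb9, Edem1 and Sel1l below and for Creb3l1 above.

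Hyou1, an ER chaperone of the Hsp70 family, was low in mice 46 and 48. It read 8.28 and 8.30 in wild-type vehicle, 7.97, 8.33 and 8.35 in wild-type rosiglitazone, 7.95 and 8.30 in knockout vehicle, and 8.14, 8.37 and 8.29 in knockout rosiglitazone. The remaining 7 arrays lay between 8.28 and 8.37.

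Calr, a lectin chaperone that holds glycoproteins in the folding cycle, came closest to the threshold among the knockout drug differences. Its levels were 10.76 and 10.80 in wild-type vehicle, 10.75, 10.84 and 10.79 in wild-type rosiglitazone, 10.69 and 10.58 in knockout vehicle, and 10.87, 10.83 and 10.88 in knockout rosiglitazone. The knockout vehicle arrays were the lowest and did not overlap with any other group. The drug difference in knockout was 0.23 ± 0.11 (SE, limma adjusted p = 1). With the donor mouse as a random block it was the only member with an unadjusted p under 0.05, where 6.75% of probe sets had one.

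Of the 3 sensors shared by most cells, Ern1 (IRE1α) varied least. It read 7.34 and 7.34 in wild-type vehicle and 7.38, 7.35 and 7.45 in wild-type rosiglitazone, and 7.14 and 7.26 in knockout vehicle and 7.30, 7.43 and 7.44 in knockout rosiglitazone. The 3 drug arrays lay above the vehicle arrays in both genotypes, with differences of 0.05 ± 0.12 (SE) and 0.19 ± 0.12 that did not pass the test. Eif2ak3 (PERK) had drug differences of 0.12 ± 0.13 in wild type and -0.07 ± 0.13 in knockout. For Atf6 they were -0.07 ± 0.15 and -0.12 ± 0.15.

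Ern2, the goblet cell sensor, was dim, as was Derl3, and these were the only 2 members below the median brightness of the tested probe sets. Ern2 read 3.28 and 3.84 in wild-type vehicle, 3.09, 2.88 and 4.17 in wild-type rosiglitazone, 3.13 and 3.22 in knockout vehicle, and 2.69, 4.12 and 3.30 in knockout rosiglitazone. Both arrays of mouse 47 and the array of mouse 45 were high, and the other 7 were low. The genotype difference was -0.39 ± 0.47 (SE) under vehicle and -0.01 ± 0.38 under rosiglitazone.

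Xbp1 encodes the transcription factor made active by IRE1 splicing, and the array reads its total transcript, not the spliced form. Its levels were 9.03 and 8.91 in wild-type vehicle and 8.87, 9.09 and 8.96 in wild-type rosiglitazone, against 9.16 and 9.27 in knockout vehicle and 9.37, 8.84 and 8.98 in knockout rosiglitazone. The vehicle groups did not overlap, and the rosiglitazone groups did. The genotype difference was 0.24 ± 0.18 (SE) under vehicle and 0.09 ± 0.15 under rosiglitazone.

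Creb3l1 and Trib3 had 2 of the 3 largest spreads over arrays, along with Ern2. Creb3l1, a membrane-bound factor of the ATF6 type that promotes secretory capacity, read 5.11 and 5.20 in wild-type vehicle and 4.99, 5.05 and 5.28 in wild-type rosiglitazone, and 4.32 and 5.24 in knockout vehicle and 4.14, 5.64 and 4.79 in knockout rosiglitazone. The arrays of mouse 46 were the lowest, and without them the genotype difference turned from -0.37 to 0.09 under vehicle and from -0.25 to 0.11 under rosiglitazone. Its knockout drug difference was 0.08 ± 0.38 (SE), but Creb3l1 was lower with the drug in both paired knockout mice (-0.18 in mouse 46 and -0.45 in mouse 44). Fitted with donor as a fixed block, it was -0.31, where Creb3l1 was the only member with an unadjusted p under 0.05 and 7.49% of probe sets had one. Trib3, an inhibitor induced through ATF4 and CHOP, read 4.74 and 5.15, then 4.50, 4.82 and 5.09, in wild type, and 5.11 and 5.48, then 5.31, 3.71 and 5.36, in knockout. Its lowest value, in mouse 45, set the knockout drug difference of -0.50 ± 0.42 (SE), and without that array it was 0.04. Atf4 itself had drug differences of 0.13 ± 0.15 and -0.09 ± 0.15.

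Herpud1, Sel1l, Syvn1, Edem1 and the derlins form the complex that retrieves misfolded proteins from the ER for degradation. Herpud1 read 7.94 and 8.34 in wild-type vehicle and 8.10, 8.23 and 8.67 in wild-type rosiglitazone. In knockout vehicle it read 8.51 and 8.01, and in knockout rosiglitazone 8.85, 7.65 and 8.09. Groups overlapped throughout, but in each mouse with both treatments the rosiglitazone array was the higher, by 0.30 in mouse 42, 0.33 in mouse 47, 0.07 in mouse 44 and 0.35 in mouse 46. The wild-type difference was 0.20 ± 0.32 (SE). It was 0.31 when the donor entered as a fixed block, where Herpud1 was the only member with an unadjusted p under 0.05 and 3.85% of probe sets had one.

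Sel1l, the adaptor of the same ligase complex, read 8.25 and 8.31 in wild-type vehicle, 8.36, 8.27 and 8.46 in wild-type rosiglitazone, 8.42 and 8.21 in knockout vehicle, and 8.51, 8.13 and 8.35 in knockout rosiglitazone. It too was higher with rosiglitazone in all 4 mice, by 0.02 to 0.15. The drug differences over groups were 0.08 ± 0.15 (SE) in wild type and 0.01 ± 0.15 in knockout. Members higher with the drug in all 4 mice numbered 5 of 34 (P4hb, Ern1, Herpud1, Sel1l and Edem1), where 6.33% of probe sets showed that pattern, and 0 were lower in all 4 (6.98%).

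Derl3, a derlin found mainly in secretory cells and dim here, had drug differences of 0.16 ± 0.19 (SE) in wild type and -0.17 ± 0.19 in knockout. It read 3.83 and 3.88 in wild-type vehicle and 3.80, 3.96 and 4.28 in wild-type rosiglitazone, and 3.93 and 4.30 in knockout vehicle and 3.82, 4.19 and 3.82 in knockout rosiglitazone. Within mice it was higher by 0.13 and 0.40 in wild type and lower in both knockout mice (-0.47 in mouse 44 and -0.10 in mouse 46). The difference between the responses was -0.33 ± 0.26 (SE, limma adjusted p = 0.9999). It was -0.56 with the donor fixed as a block, where Derl3 was the only member with an unadjusted p under 0.05 and 5.09% of probe sets had one. Hsp90b1 and Sec61a1 shared the pattern of 2 higher and 2 lower mice (3 of 34 members, where 6.01% of probe sets did so), and 0 members showed the reverse (5.81%).

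The translocation genes bring new proteins into the ER. Sec61a1, the channel itself, read 10.29 and 10.34 in wild-type vehicle, 10.22, 10.36 and 10.38 in wild-type rosiglitazone, 10.33 and 10.35 in knockout vehicle, and 10.30, 10.59 and 10.31 in knockout rosiglitazone. Mouse 45 lay above all other arrays. Sec61b, a small channel subunit, read 6.55 and 6.40, then 6.47, 6.17 and 6.33, in wild type, and 6.11 and 6.14, then 6.06, 6.45 and 6.37, in knockout. Both knockout vehicle arrays were below both wild-type vehicle arrays, with a difference of -0.35 ± 0.17 (SE, limma adjusted p = 0.855), and under rosiglitazone the difference was -0.03 ± 0.14. These values are from the brightest of 3 Sec61b probe sets. The next also separated the vehicle groups (5.36 and 5.38 in knockout, 5.73 and 5.68 in wild type). The dimmest did not (4.84 and 4.14 in knockout, 4.81 and 4.82 in wild type). Under rosiglitazone the genotypes overlapped in all 3. The signal peptidase subunit Spcs2 had the smallest range of all members over the 10 arrays, 0.198.

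Muc2 had a wider range over the arrays than any member. It read 6.15 and 5.03 in wild-type vehicle, 4.52, 6.03 and 4.69 in wild-type rosiglitazone, 3.71 and 5.60 in knockout vehicle, and 3.92, 8.47 and 6.59 in knockout rosiglitazone. Mouse 45 was highest and mouse 46 lowest. Of 15 goblet cell markers besides Muc2, 9 had a Pearson r above 0.5 with Muc2 over the 10 arrays, among them Agr2 at 0.93, a disulfide isomerase that mucin folding needs, and 1 had an r below -0.5 (Galnt3, -0.76). Markers of other cell types moved with Muc2 as well. An r above 0.5 was seen for 7 of 9 deep crypt secretory and Paneth cell markers and 6 of 7 stem cell markers. It was seen for 5 of 10 enteroendocrine and 3 of 7 tuft cell markers. Colonocyte markers went both ways, with 4 of 10 below -0.5 and 2 above 0.5. Over all probe sets 13.2% had an r above 0.5 and 14.4% below -0.5. The part of these markers in the relations below was not tested. The mean level of the 16 goblet markers measured ran from 4.62 to 4.82 in wild-type vehicle, 4.06 to 4.66 in wild-type rosiglitazone, 3.85 to 4.74 in knockout vehicle and 3.82 to 6.20 in knockout rosiglitazone. In bulk organoids fewer goblet cells and less RNA per goblet cell cannot be told apart.

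The ER genes did not share a direction with Muc2. Over the 10 arrays, which come from 6 mice and were normalised together, the r of the 34 members with Muc2 had a median of -0.13, against -0.05 over all probe sets and 0.07 over the brighter ones. That median was 0.03 over the means of the 6 mice, with 17 members on each side of 0, and 0.16 without mouse 46. An r above 0.5 was seen for 4 members, Sec61a1 (0.70), Creb3l1 (0.70), Hyou1 (0.68) and Ern1 (0.55), where 13.2% of all probe sets and 19.1% of the brighter ones reached it. An r below -0.5 was seen for 12 members, where 14.4% of all probe sets and 13.7% of the brighter ones did. That count was 11 without mouse 45, 8 without mouse 46 and 6 without both, against 14.5%, 13.3% and 13.4% of all probe sets. These correlations describe the arrays and carry no p-value.

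**Figure D3:**
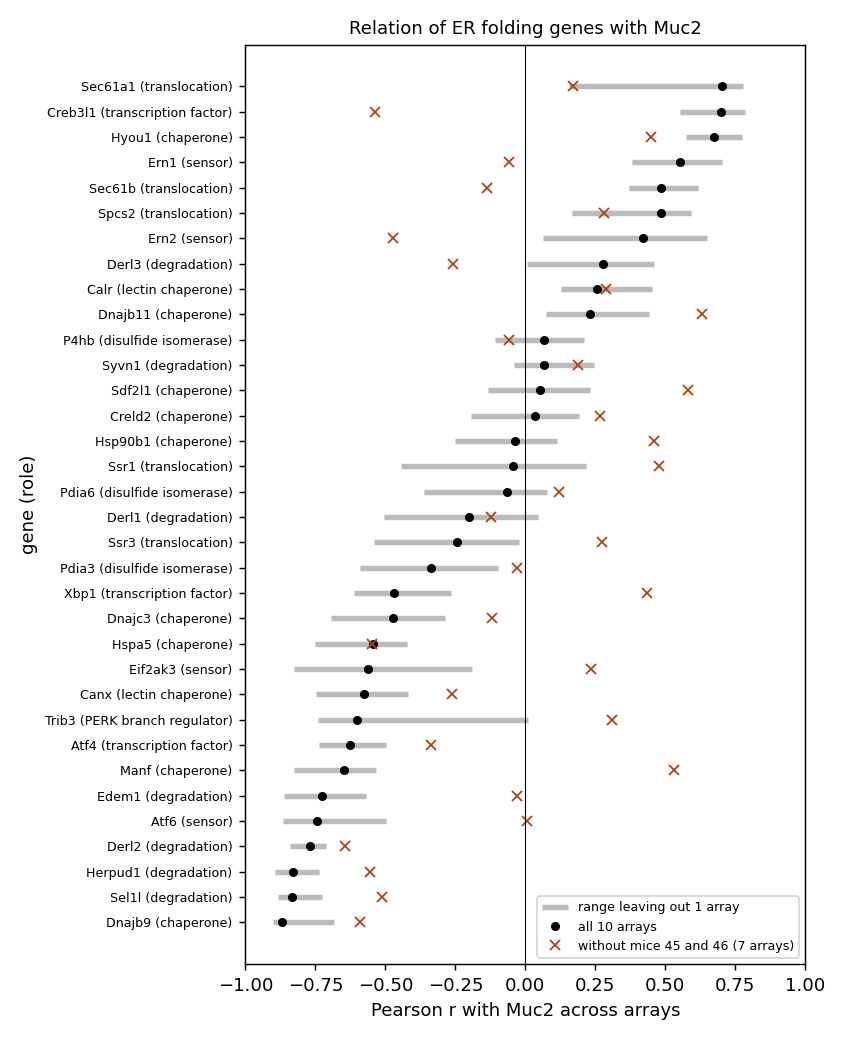
Pearson r of each ER gene with Muc2 over 10 arrays (black points), the range when 1 array is left out (grey bars), and r over the 7 arrays of the other mice without mice 45 and 46 (crosses). Dnajb9, Sel1l, Herpud1 and Derl2 stay below -0.5 in each case, whereas Creb3l1 and Manf, for example, change sign without mice 45 and 46.

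The negative side was led by Dnajb9, a BiP co-chaperone that restrains IRE1. Dnajb9 read 7.58 and 7.81 in wild-type vehicle, 7.70, 7.53 and 8.09 in wild-type rosiglitazone, 7.86 and 7.83 in knockout vehicle, and 8.10, 6.95 and 7.70 in knockout rosiglitazone. The highest Muc2 array, mouse 45, had the lowest Dnajb9, and mouse 46 had high Dnajb9 with the lowest Muc2. Its r with Muc2 was -0.87, followed by Sel1l and Herpud1 (both -0.83), Derl2 (-0.77), Atf6 (-0.74) and Edem1 (-0.73). The rest were Manf (-0.65), Atf4 (-0.62), Trib3 (-0.60), Canx (-0.58), Eif2ak3 (-0.56) and Hspa5 (-0.54).

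By role, the degradation genes had a median r of -0.73, with 4 of 7 below -0.5 (Herpud1, Sel1l, Derl2 and Edem1). The 5 translocation genes had a median of 0.48, the 3 disulfide isomerases -0.06 and the 9 chaperones -0.04. Those 5 ran from -0.24 (Ssr3) to 0.70 (Sec61a1), and without mouse 45 Sec61a1 had 0.16 and Spcs2 0.17. The 26 other ER translocation and N-glycosylation genes had a median r of -0.15, and 10 of them were positive. The 35 other ER folding and quality control genes had a median of -0.06, with 4 below -0.5 and 5 above 0.5. Among degradation genes in that list, Erlec1 had -0.79, Os9 -0.44, Edem3 -0.20 and Edem2 -0.06. Within the degradation role, Syvn1 (0.07), Derl3 (0.28) and Derl1 (-0.20) were apart from the other 4. Herpud1, Sel1l and Edem1 also tracked each other over arrays, with r = 0.93 for Herpud1 with Sel1l, 0.91 for Herpud1 with Edem1 and 0.89 for Sel1l with Edem1, against a median of 0.14 over the 21 pairs of degradation genes, which ran from -0.37 to 0.93, and of 0.21 over the 561 pairs of members. These pairs were picked for their values.

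How far these relations rest on single mice differed by gene. Without the 2 arrays farthest from the Muc2 median (mouse 45, and mouse 46 in vehicle), r was -0.74 for Dnajb9, -0.71 for Sel1l, -0.74 for Herpud1 and -0.79 for Derl2, while Sec61a1 went from 0.70 to 0.22, Creb3l1 to 0.38 and Trib3 from -0.60 to 0.05. Without all 3 arrays of mice 45 and 46, r was -0.59, -0.51, -0.55 and -0.64 for the first 4, -0.03 for Edem1, 0.005 for Atf6 and -0.54 for Creb3l1. With each array centred on its median, Sec61a1 had r = 0.26 and Sel1l -0.73. After the group means were subtracted, r was -0.95 for Sel1l, -0.89 for Herpud1 and -0.86 for Dnajb9, which leaves only the differences among arrays of a group.

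**Figure D4:**
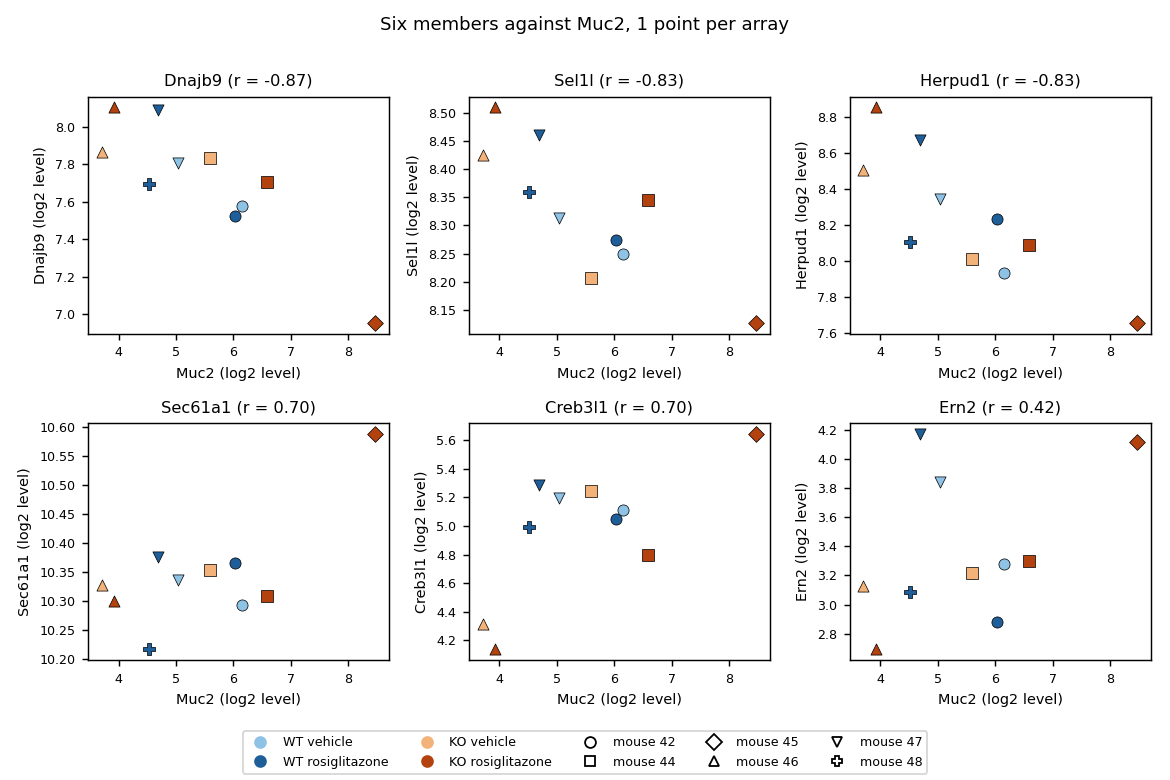
Log2 level of Dnajb9, Sel1l, Herpud1, Sec61a1, Creb3l1 and Ern2 against that of Muc2, 1 point per array, coloured by group and shaped by donor mouse. Levels in the top row are lower where Muc2 is higher, while in the bottom row mouse 45, with Muc2 at 8.47, is highest for Sec61a1 and Creb3l1, and the 2 arrays of mouse 46 are the lowest for Creb3l1.

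The mouse is the independent unit, so the relation was tested on the means of the 6 mice by an exact two-sided permutation test over 720 pairings. Sel1l had r = -0.981 (exact permutation p = 0.00556, adjusted p = 0.482) and rho = -0.886 (p = 0.0333, adjusted p = 0.590). For Dnajb9 r was -0.918 (exact permutation p = 0.0194, adjusted p = 0.505) and for Herpud1 -0.888 (exact permutation p = 0.0208, adjusted p = 0.505). Their rho was -0.714 and -0.943 (exact permutation p = 0.136 and 0.0167). Over all members, 5 had an unadjusted p of r under 0.05 (Sel1l, Dnajb9, Herpud1, Atf4 and Sec61a1), where 9.25% of probe sets did so, and 3 had one for rho (5.65%). After adjustment over 23098 relations 0 members passed, as did 0 probe sets, and the smallest p of r that 6 mice allow is 0.00139.

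Within the 4 mice that gave both treatments, Muc2 moved by -0.12 in mouse 42, -0.35 in mouse 47, 0.99 in mouse 44 and 0.22 in mouse 46 with rosiglitazone. Herpud1, Sel1l and Edem1, which were higher in all 4, thus went against Muc2 in 2 of the 4 mice, and Dnajb9 did so in 2. Hsp90b1, Derl3 and Sec61a1 went against it in all 4. Muc2 fell in both wild-type mice and rose in both knockout mice. These 3 members therefore repeat the pattern given above with Derl3, which 6.01% of probe sets showed, and are not a further result. Moving with Muc2 in all 4 mice was seen for 0 members, where 5.81% of probe sets did so.

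The 9 members with ERSE in their promoter had drug differences from -0.25 (Pdia6) to 0.16 (Derl3) in wild type, 4 of them positive, and from -0.17 (Derl3) to 0.26 (Creld2) in knockout, 3 of them positive. Their median r with Muc2 was -0.04, between -0.58 (Canx) and 0.28 (Derl3). The 18 measured members whose promoter entry lacked it had a median of -0.40, between -0.87 (Dnajb9) and 0.55 (Ern1). This split was made after the values were known and was not tested.

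Genes that work beside the members gave no calls either. Among 35 other ER folding and quality control genes, 26 other translocation and N-glycosylation genes, 25 targets of ATF4 and CHOP and 10 cytosolic heat shock genes, 0 passed the adjusted threshold of limma in any of the 5 comparisons, with or without the donor as a random block. An unadjusted p under 0.05 was seen for Srp19, Spcs1, Tusc3 and Slc7a11 in 1 comparison each and for Pdia5 in 2. The comparisons were rosiglitazone in knockout, where 3.06% of all probe sets had one, and genotype under vehicle (5.69%) and under rosiglitazone (4.81%). The genes named next were picked for their values. The smallest p in the ER lists was that of Tusc3, an oligosaccharyltransferase subunit, which differed by 0.50 ± 0.17 (SE) between genotypes under rosiglitazone (limma adjusted p = 0.939). Pdia5, a further disulfide isomerase, differed by 0.52 ± 0.20 with rosiglitazone in knockout (limma adjusted p = 1). Slc7a11, the cystine transporter and an ATF4 target, read 1.45 ± 0.50 (SE) higher in knockout than wild type under vehicle (limma adjusted p = 0.846), and Slc7a5 and Chac1, further ATF4 targets, had r = 0.81 and -0.80 with Muc2. Of the 25 ATF4 and CHOP targets, 10 had an r below -0.5, where 14.4% of probe sets did, and 4 above 0.5 (13.2%). Their median r was -0.44, and 7 were positive. Without the 2 arrays farthest from the Muc2 median, only Mthfd2 (-0.86) of those 10 targets stayed below -0.5. Ero1a, for example, went from -0.68 to 0.14 and Aldh1l2 from -0.58 to -0.04. Of the 4 above 0.5, only Stc2 (0.82) stayed there.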

How the data were processed

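The deposited table held log2 expression of 35556 probe sets per array, made by the authors with RMA per the submitters' processing notes. Its version and chip definition are not given in the sources used here. RMA corrects background, normalises arrays to a common distribution and summarises probes, so a difference shared by all genes is removed and low levels are compressed. Probe sets listed in the platform annotation were tested (23099), 12457 others were not used, and 21185 of the 21218 single-symbol probe sets matched RefSeq genes of GRCm38.p6. Array medians of all probe sets lay between 3.54 and 3.72.

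Fits used limma 3.58.1 in R 4.3.3: group means of the 4 groups, estimated together from the 10 arrays, with contrasts and eBayes (residual df 6, prior df 4.39), two-sided, threshold 0.05. The labels give each array's donor mouse, which pairs the arrays of 4 mice. In this pairing check the differences between mice 42 and 47 correlated at r = 0.44 between treatments, and those between mice 44 and 46 at r = 0.487. The replicate number in a title is not the mouse. Alternatives entered the donor as a random (consensus correlation 0.438, statmod 1.5.0) or fixed replicate block, or used centring, repeated quantile normalisation, a brightness filter, only the groups compared, a trended or robust eBayes, only the 4 paired mice and leaving out each array. Leaving out mouse 46 was added after the data were seen. Correlations and permutation tests were computed with NumPy 2.4.6, with ranks from SciPy 1.17.1, and scripts were tested on simulated data. In the fit without the donor mouse, limma p-values measure the spread among arrays of a group, each from a different mouse. That fit takes the 10 arrays as independent, though 4 mice gave both treatments. Permutation p-values rest on the means of the 6 mice.

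The members and lists were chosen with earlier results of these data known. Values for every array are given for the 3 members with the largest difference in each comparison, the 5 highest and 3 lowest in r with Muc2, and representatives of the roles. Hsp90b1 and Calr were added after their values were seen.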

Additional observations from a re-analysis of the deposited data

How the results depend on the processing

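The count of members called stayed at 0 in all 102 combinations of 21 alternatives with the comparisons they apply to. For the 15 differences of single members followed through them, 3 in each comparison, 292 values kept their direction and side of the threshold and 12 changed sign. Of all 34 members, 7 changed sign under the fixed replicate block for the drug in wild type, 9 in knockout and 8 for the difference between responses. With the donor mouse as a fixed replicate block, and equally with only the 4 mice that gave both treatments, the knockout drug difference was 0.042 for Trib3 and 0.054 for Dnajb9, and the difference between responses was -0.14 for Ern2. Without both arrays of mouse 46, chosen after seeing the data, Creb3l1 was 0.090 higher in knockout under vehicle and 0.11 under rosiglitazone, the median member difference under vehicle was -0.070, and 1 probe set was called under rosiglitazone. Centring each array made that vehicle median 0.18. Leaving out 1 array gave medians from -0.08 to 0.03 for the drug in wild type, -0.11 to 0.069 in knockout, -0.10 to 0.050 for the difference between responses, -0.070 to 0.15 for genotype under vehicle and -0.01 to 0.09 under rosiglitazone.

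Over all probe sets, the calls for genotype under vehicle (0) became 1 with the random replicate block, after repeated quantile normalisation or among brighter probe sets, 2 with centring, a trended or a robust eBayes, 4 with only the groups compared and 6 with the 4 paired mice. Those under rosiglitazone (5) became 1 after repeated quantile normalisation, with only the groups compared or a robust eBayes, 8 with a trend and 16 with the 4 paired mice. The random replicate block gave 1 call for the drug in knockout. Leaving out 1 array gave 0 to 6 calls under vehicle and 1 to 23 under rosiglitazone. Among single members, it gave -0.78 to 0.042 for Trib3 and -0.52 to 0.054 for Dnajb9 (drug in knockout), -0.83 to 0.090 (vehicle) and -0.64 to 0.11 (rosiglitazone) for Creb3l1 between genotypes. The cause was not tested. Low signal limits Ern2 and Derl3.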

Other observations

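Outside the members, some genes of the neighbouring pathways had a relation with Muc2 over the 10 arrays that was as close or closer without the 2 arrays farthest from the Muc2 median. Erlec1, a lectin of the ER degradation pathway, had r = -0.79, and -0.86 without those arrays. For Mthfd2, a mitochondrial folate enzyme and ATF4 target, r was -0.78 and -0.86. Stc2, a secreted glycoprotein induced by ER stress, had the opposite sign at 0.66 and 0.82. Other relations depended on those arrays, among them Ssr2, a subunit of the translocon-associated complex (0.73 and 0.21), and Chac1, a glutathione-degrading enzyme induced through ATF4 (-0.80 and -0.46). Hsp90aa1, the inducible cytosolic Hsp90, had r = 0.79 and 0.61. Among the 10 cytosolic heat shock genes, all brighter than the median, 2 had an r above 0.5 and 0 below -0.5. Of the brighter probe sets 19.1% had an r above 0.5 and 13.7% below -0.5. These genes were picked for their values, so the values are a description only.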
